A study of Saccharomyces cerevisiae with 6 samples.

Results

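The cytosolic ribosomal protein genes of budding yeast (Saccharomyces cerevisiae) were followed through a shift from air to low oxygen. The group was chosen by gene name: every measured gene named RPL (large subunit), RPS (small subunit) or RPP (the stalk of the large subunit) followed by a number. The name pattern took 133 of 6282 measured genes, and 132 were kept. The gene left out, RPP1, encodes a subunit of nuclear RNase P and no part of the ribosome. The 132 genes comprised 72 of the large subunit, 55 of the small subunit and 5 of the stalk, and 110 of them formed 55 pairs of copies called A and B. The symbol table lists 137 such genes, and the other 5 were not analysed here.

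The study compared aerobic with hypoxic cells on 6 2-colour arrays, 3 of wild-type yeast and 3 of yeast with a hap1 deletion, which removes a transcription factor that responds to heme. Each array paired cells of 1 strain with and without oxygen shortage, so no array compares the strains directly and the ratio of HAP1 itself does not check the deletion. Replicates were separate cultures grown on different days. The labels name no strain background, medium, oxygen level or time in hypoxia. The hypoxic sample was labelled with Cy5 on the first and last array of a strain and with Cy3 on replicate 2, and the titles state 1 direction of the ratio, which was taken for every array. All values below are log2 ratios of hypoxic over aerobic RNA, so a negative value means less RNA in hypoxia.

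Ribosomal proteins and ribosomal RNA together build the machine that translates messenger RNA. The small subunit reads the message and the large subunit joins amino acids and passes the growing chain through its exit tunnel. Most yeast ribosomal proteins are encoded by a pair of copies left by an ancient genome duplication. Their genes are among the most strongly transcribed of the cell, are known to be controlled together by factors such as Rap1, Fhl1, Ifh1 and Sfp1, and are known to be lowered together when growth slows or stress is met. The copies of most pairs are close to identical in coding sequence, so their spots may share signal. Identity was not computed here. A ratio of total RNA pools cannot tell less RNA per cell from a changed share of cells.

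All 132 genes had a value on all 6 arrays, so none was lost to the filter of at least 2 values per strain, which 6208 of the 6282 genes passed. The arrays lacked between 15 and 678 values, most of them on hap1 deletion replicate 1. Over the 132 genes, the other 5 arrays correlated with each other at r from 0.37 to 0.56. Hap1 deletion replicate 1 correlated with those 5 at r from -0.11 to 0.22. By rank it did not stand apart from deletion replicate 2 (rho = 0.35, against 0.24 between wild-type replicates 1 and 3). Over all genes deletion replicates 1 and 2 correlated at r = 0.50. These correlations are across genes, which are not independent replicates. The main results that rest on deletion replicate 1 are given with and without it.

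Ribosomal protein RNA was modestly lower in hypoxia in both strains. The median of the 132 genes was -0.37 in wild type, a 1.30-fold lower level, and -0.45 in the deletion strain, a 1.37-fold lower level. The medians of all 6208 genes tested were -0.04 and -0.06. By array the median of the group was -0.65, -0.21 and -0.36 on wild-type replicates 1 to 3, and -0.13, -0.65 and -0.58 on deletion replicates 1 to 3. It lay below 0 on each of the 6 arrays, but its size differed from array to array by as much as the response itself. Without deletion replicate 1 the median of the deletion strain was -0.60.

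The position of the group among all genes shows the same spread. On wild-type replicates 1 to 3, 19.5%, 34.9% and 26.9% of all genes lay below the median ribosomal protein gene. On deletion replicates 2 and 3 the shares were 16.2% and 21.2%, and on deletion replicate 1 the share was 44.4%, near the middle of the genome.

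In wild type 101 of the 132 genes lay below 0 on all 3 arrays, against 28.3% of all genes with 3 values. In the deletion strain 75 did, against 28.6% of all genes. On deletion replicates 2 and 3 alone, 114 lay below 0 on both, against 39.5% of all genes. Over both strains 65 of the 132 genes, or 49.2%, were below 0 on all 6 arrays, against 15.8% of the 5301 genes with 6 values. Another 44 were below 0 on 5 arrays, and for 33 of these the array above 0 was deletion replicate 1. With that array left out, 98 of the 132 genes, or 74.2%, were below 0 on all 5 remaining arrays, against 20.5% of all genes. These counts describe genes that share each array, so they carry no test.

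**Figure D1:**
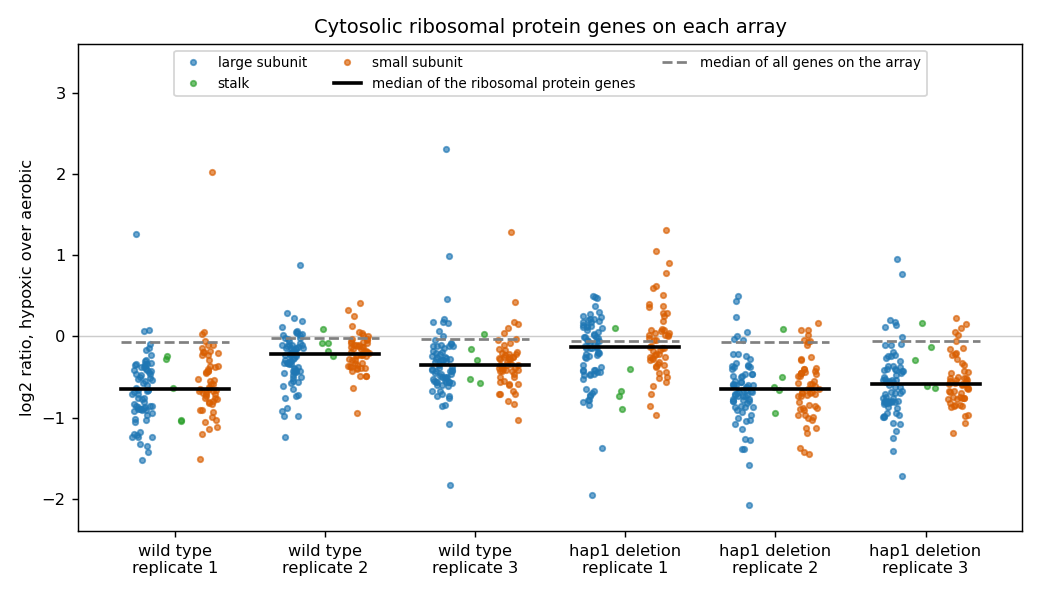
Log2 ratio of hypoxic over aerobic RNA (vertical axis) for each of the 132 genes on each of the 6 arrays (horizontal axis), coloured by subunit. Black lines mark the median of the 132 genes and dashed grey lines the median of all genes on that array; the black line lies lowest on wild-type replicate 1 (-0.65) and deletion replicate 2 (-0.65) and nearest to the grey line on deletion replicate 1 (-0.13).

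The ribosomal protein genes lay in a narrower band than the genome. The interquartile range of the group was 0.30 to 0.52 on the 6 arrays, while that of all genes was 0.70 to 0.95. Within a strain, the typical spread of a ribosomal protein gene between arrays (median residual SD of the limma fit) was 0.34. It was 0.23 once the median of the group on each array had been subtracted, so part of the disagreement between arrays was a shift that the genes shared. For all genes the median residual SD was 0.42.

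Few single genes passed the test in either strain taken alone. With limma's moderated test and Benjamini-Hochberg adjustment over the 6208 genes, 2 of the 132 fell in wild type, 1 rose and 129 did not pass. Of all genes, 2.32% were called lower and 1.92% higher in wild type, so the share of ribosomal protein genes called (1.52% and 0.758%) was no larger than in the genome. RPL34A and RPS1B fell and RPL43B rose. The count was 0 when wild-type replicate 1, 2 or 3 or deletion replicate 2 was left out. Of all genes, 0.784%, 0.0324%, 0.374% and 1.09% were called in these fits, so few calls were left among the members or elsewhere. The count was 5 when deletion replicate 1 was left out (4 lower and 1 higher), with 5.79% of all genes called. At an unadjusted p under 0.05, 39 of the 132 were lower, or 29.5%, against 13.1% of all genes.

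RPS1B (YML063W) encodes a small subunit protein near the site where messenger RNA leaves the ribosome. Its ratios in wild type were -0.82, -0.94 and -1.03, and those without HAP1 were -0.70, -1.19 and -0.98. All 6 values lay close together and the strains overlapped. Its mean was -0.93 ± 0.11 (SD, n = 3) in wild type (limma adjusted p = 0.0411) and -0.96 ± 0.25 (SD, n = 3) in the deletion strain (limma adjusted p = 0.0310), a fall of 1.91-fold and 1.95-fold.

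RPL34A (YER056C-A) encodes a protein of the large subunit. It read -1.42, -0.97 and -0.68 in wild type and -0.72, -1.27 and -0.95 in the deletion strain, and the strains overlapped. Its mean in wild type was -1.02 ± 0.37 (SD, n = 3; limma adjusted p = 0.0480), and in the deletion strain it was -0.98 ± 0.27 (SD, n = 3; limma adjusted p = 0.0506), which missed the threshold.

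In the deletion strain 3 of the 132 genes fell, none rose and 129 did not pass the limma test. The share called lower was 2.27%, against 1.82% of all genes, and none was called higher, against 2.5% (at an unadjusted p under 0.05 there was 1, against 10.7% of all genes). The genes that fell were RPS1B, RPL17B and RPL35B. At an unadjusted p under 0.05, 52 were lower, or 39.4%, against 14% of all genes. Leaving out deletion replicates 1, 2 and 3 in turn left 1, 0 and 0 calls, with 2.28%, 0.610% and 1.24% of all genes called. Without wild-type replicates 1, 2 and 3 there were 5, 0 and 0 calls, with 4.62%, 2.36% and 2.50% of all genes.

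RPL17B (YJL177W) and RPL35B (YDL136W) encode proteins at the mouth of the exit tunnel, where chaperones and the signal recognition particle meet the new chain. RPL17B read -0.41, -0.29 and -0.08 in wild type and -1.37, -0.96 and -0.82 in the deletion strain, where its mean of -1.05 ± 0.28 (SD, n = 3) passed (limma adjusted p = 0.0292). Every deletion array lay below every wild-type array. RPL35B had a mean of -0.55 ± 0.28 in wild type and of -0.89 ± 0.20 (SD, n = 3) in the deletion strain, where it passed (limma adjusted p = 0.0482).

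When the response was averaged over both strains in the same fit, a contrast added after the data had been seen, many more genes passed. In limma's test 36 of the 132 genes fell and 1 rose, or 27.3% and 0.758%, against 9.52% and 7.44% of all genes, and 95 did not pass. The 36 included 23 of the large subunit, 11 of the small subunit and 2 of the stalk. The count depended on single arrays: 10, 6 and 8 genes fell without wild-type replicates 1, 2 and 3, and 48, 2 and 11 without deletion replicates 1, 2 and 3. Without deletion replicate 2 the share of 1.52% was below that of all genes (3.08%), while without any 1 of the other arrays it stayed above. RPL43B was the riser in each of these fits, by 0.74 to 0.88 (limma adjusted p from 0.0168 to 0.0405). With a dye term in the fit 7 fell, or 5.30%, against 4.27% of all genes.

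The lowest gene of the group was RPL25 (YOL127W), which encodes the tunnel exit protein that anchors the signal recognition particle and the nascent chain-associated complex. It read -1.33, -0.76 and -1.82 in wild type and -0.20, -1.58 and -1.72 in the deletion strain, with deletion replicate 1 far above the other arrays. Its means were -1.31 ± 0.53 and -1.17 ± 0.84 (SD, n = 3), and it passed only in the mean of both strains (-1.24, limma adjusted p = 0.0199).

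RPL26A (YLR344W), another gene of the tunnel exit, had means of -0.87 ± 0.32 and -1.01 ± 0.47 (SD, n = 3) and fell by 0.94 over both strains (limma adjusted p = 0.0146). RPL24A (YGL031C) encodes a large subunit protein of the bridge to the small subunit. It had means of -0.79 ± 0.39 and -0.91 ± 0.43 (SD, n = 3) and fell by 0.85 over both strains (limma adjusted p = 0.0198). RPL26A and RPL24A were each below 0 on all 6 arrays. RPL17A, RPL35A and RPL26B, the other copies of tunnel exit genes named above, averaged -0.35, -0.54 and 0.18 over both strains and did not pass.

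RPL3 encodes a protein that reaches toward the peptidyl transferase centre, and it fell by 0.74 over both strains (limma adjusted p = 0.0184). RPL5 and RPL11A encode the partners of the 5S ribosomal RNA. RPL5 fell by 0.55 and RPL11A by 0.77 over both strains (limma adjusted p = 0.0353 and 0.0172), while RPL11B had a mean of -0.26 and did not pass. RPL10, whose protein is loaded late in maturation of the large subunit, had a mean of -0.29 over both strains and did not pass.

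Among small subunit genes, RPS2 encodes a protein of the entry channel for messenger RNA and fell by 0.76 over both strains (limma adjusted p = 0.0209). RPS3, also at the entry channel, averaged -0.53, which missed the threshold (limma adjusted p = 0.0691). RPS31, which encodes a small subunit protein fused to ubiquitin, had a mean of -0.32 and did not pass.

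The stalk recruits the elongation factors. Its base protein, encoded by RPP0, read -1.02, -0.25 and -0.15 in wild type and -0.67, -0.62 and -0.64 in the deletion strain, where the 3 arrays were almost equal. RPP0 fell by 0.56 over both strains and RPP1A, an acidic stalk protein gene, by 0.57 (limma adjusted p = 0.0470 and 0.0420). RPP1B averaged -0.44 and RPP2A -0.39 over both strains, and neither passed. RPP2B stayed near 0, at -0.24, -0.08 and 0.03 in wild type and 0.10, 0.09 and -0.13 in the deletion strain, and did not pass.

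A few genes did not share the lower level. RPL43B (YJR094W-A), a copy of a zinc-binding large subunit protein gene, was the 1 gene of the 132 above 0 on all 6 arrays, against 10.6% of all genes. It read 1.26, 0.88 and 0.99 in wild type and 0.38, 0.50 and 0.95 in the deletion strain. Its mean of 1.04 ± 0.19 (SD, n = 3) in wild type was a 2.06-fold rise (limma adjusted p = 0.0384). The deletion strain gave 0.61 ± 0.30 (SD, n = 3), which missed the threshold (limma adjusted p = 0.109). Over both strains it rose by 0.83 (limma adjusted p = 0.0119). Its partner RPL43A, at -0.50 and -0.22, passed in neither strain.

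RPS19A (YOL121C) encodes a small subunit protein whose human counterpart is mutated in Diamond-Blackfan anemia. It read 2.02, 0.32 and 1.29 in wild type and 0.90, 0.08 and -0.85 in the deletion strain, a range so wide that it did not pass in either strain (limma adjusted p = 0.134 and 0.955). RPL26B (YGR034W) was wider still, at -0.16, 0.19 and 2.30 in wild type and -1.95, -0.04 and 0.76 in the deletion strain. Its high mean of 0.78 in wild type rested on replicate 3, and it did not pass.

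RPS30A (YLR287C-A), a small subunit gene, read -0.18, 0.41 and 0.16 in wild type and 1.05, 0.16 and 0.02 in the deletion strain. RPL40A (YIL148W), which encodes a large subunit protein fused to ubiquitin, lay between -0.10 and 0.21 on all 6 arrays with a mean of 0.08. Neither passed. RPL40A stayed near 0, while RPS30A reached 1.05 on deletion replicate 1 and averaged 0.41 in that strain. The ubiquitin part of RPL40A is shared with RPL40B, RPS31 and UBI4, so its spot may share signal.

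**Figure D2:**
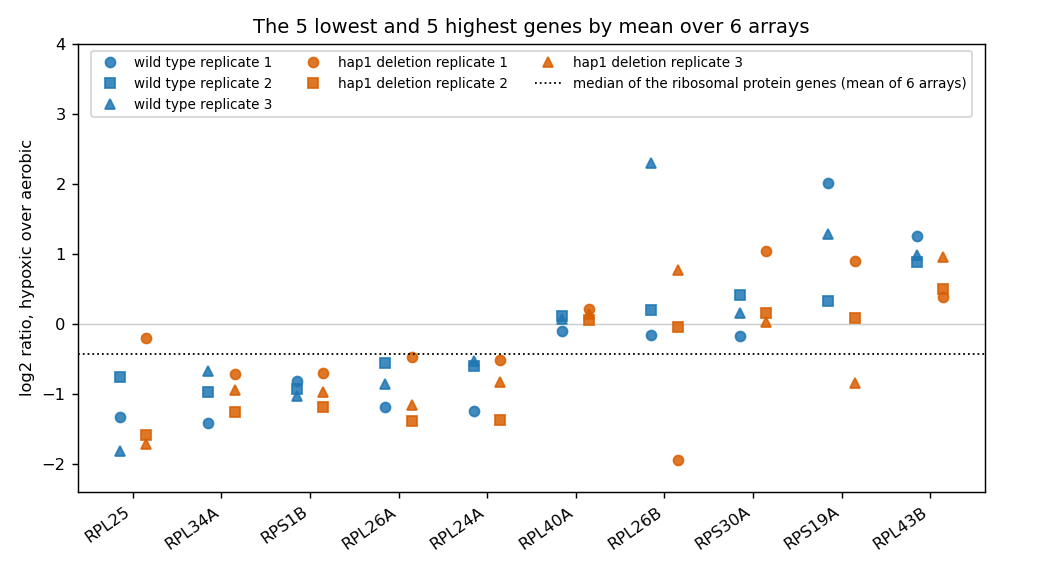
Log2 ratio of hypoxic over aerobic RNA (vertical axis) on each array for the 5 genes with the lowest and the 5 with the highest mean over 6 arrays, with wild type in blue, hap1 deletion in orange and the replicate shown by the symbol. The dotted line is the median of the 132 gene means (-0.43); RPL43B lies above 0 on all 6 arrays, while RPL26B runs from -1.95 to 2.30.

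Because the genes of an array shared part of their shift, each was also read against the median of the group on its array, a setting added after the data had been seen. In limma's test of the mean over both strains 8 of the 132 genes differed from the group's median, 4 below and 4 above. Each side held 3.03% of the members, against 2.16% of all genes below and 26.3% above, so the share below was near that of the genome and the share above well under it. Below were RPL25 (-0.81, adjusted p = 0.0274), RPL34A (-0.57, adjusted p = 0.0281), RPS1B (-0.52, adjusted p = 0.0396) and RPL26A (-0.51, adjusted p = 0.0351), each on all 6 arrays. Above were RPL43B (1.26, adjusted p = 0.00743), RPS19A (1.06, adjusted p = 0.0349), RPS30A (0.70, adjusted p = 0.0171) and RPL40A (0.51, adjusted p = 0.0359). RPS19A was above the median on 5 arrays and the other 3 on all 6. Without deletion replicate 1 there were 5 below and 5 above, against 2.48% and 37.5% of all genes. RPS19A was then no longer among them, RPL14A joined those below, and RPP2B and RPS13 joined those above.

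The next comparison asked whether the hypoxic response of these genes differed without HAP1. No member passed limma's test of the difference between the strains, against 0.354% of all genes (22 genes). At an unadjusted p under 0.05 there was 1, or 0.758%, against 7.97% of all genes. The median difference, deletion minus wild type, was -0.01 over the 132 genes and -0.03 over all genes. Leaving out replicate 1 gave -0.19 where it was the deletion array and -0.14 where it was the wild-type array. Leaving out replicate 2 gave 0.08 and 0.07 in the same order, so its sign depended on the array left out. The standard error of the difference of a single gene was 0.22 to 0.87 with a median of 0.30, so differences of the size of the response itself could go undetected.

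The member with an unadjusted p under 0.05 was RPL17B, with a difference of -0.79 (SE 0.26, limma adjusted p = 0.479). The strains did not overlap for 8 members. The deletion strain was lower for 6 of them, or 4.55% of the 132 (RPL17B, RPL33A, RPL12B, RPL7A, RPS6B and RPS14B), against 8.72% of all genes. It was higher for RPS4A and RPL35A, or 1.52%, against 6.49% of all genes. RPL12B, a gene of the stalk base, read -0.69, 0.04 and -0.28 in wild type and a tight -0.74, -0.87 and -0.75 in the deletion strain. RPL7A read -0.47, -0.16 and -0.10 against -0.81, -0.69 and -0.63.

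At the low end of the differences, RPL26B had -1.19 (SE 0.87) and RPS19A -1.16 (SE 0.58), followed by RPL17B, RPS24B (-0.63) and RPL33A (-0.60). At the other end were RPL35A (0.49, SE 0.30), RPL37A (0.49), RPS28A (0.48), RPS17B (0.37) and RPL13A (0.36). Across the 132 genes the strain means correlated at r = 0.59 (rho = 0.51), and at r = 0.68 (rho = 0.64) without deletion replicate 1, a description over genes that share arrays.

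**Figure D3:**
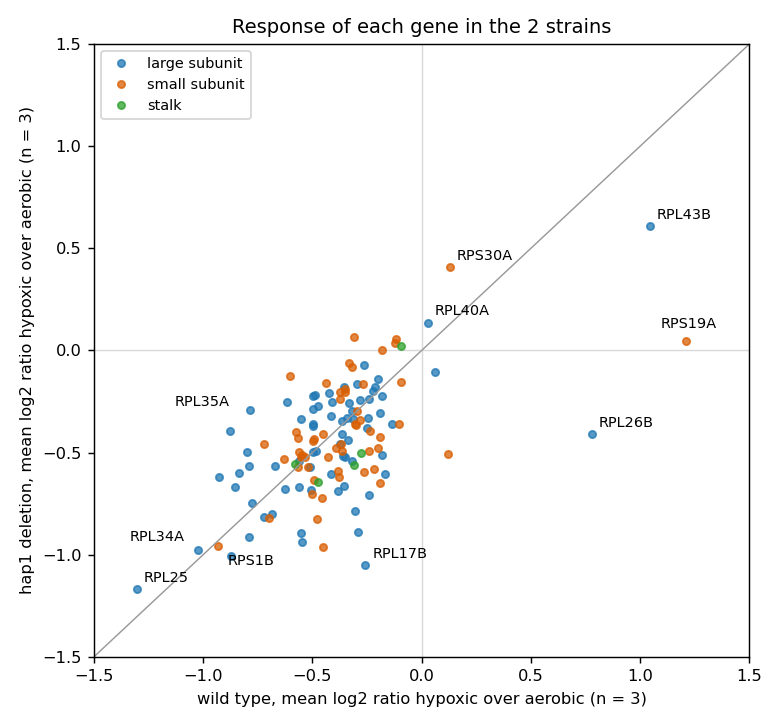
Mean log2 ratio of hypoxic over aerobic RNA in wild type (horizontal axis, n = 3) against hap1 deletion (vertical axis, n = 3) for the 132 genes, coloured by subunit, with the line of equal response. Most points lie below 0 on both axes, RPL25 is lowest, and RPS19A (1.21 and 0.05) and RPL26B (0.78 and -0.41) lie far to the right of the line.

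The subunits had similar medians. On wild-type replicates 1 to 3 the median of the large subunit genes was -0.67, -0.25 and -0.39, and that of the small subunit genes was -0.62, -0.20 and -0.35. On the deletion arrays the large subunit medians were -0.13, -0.66 and -0.58 and the small subunit medians -0.11, -0.65 and -0.58. The large subunit was lower by 0.05 ± 0.01 (SD, n = 3) in wild type and by 0.01 ± 0.01 (SD, n = 3) in the deletion strain. With A and B of each pair averaged first, the gap was -0.0836 and -0.0176. The sign was the same on all 6 arrays, but the gap was small beside the spread of the genes of either subunit. On deletion replicate 1 the stalk genes had a median of -0.67 and were well below both subunits, and on wild-type replicate 2 they were at -0.08.

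Genes with and without a measured partner had like medians. The 110 paired genes had -0.37 in wild type and -0.46 in the deletion strain, and the 22 others -0.38 and -0.39. Across the 132 genes, gene span and the mean over 6 arrays had r = -0.07, a description over genes that share arrays.

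Copies A and B of each pair were compared next. In wild type both copies were below 0 in 49 of 55 pairs and in the deletion strain in 48. Without deletion replicate 1 the copies lay on the same side of 0 in 51 pairs of that strain. Neither copy was the lower one as a rule: A was lower in 30 pairs in wild type and in 28 in the deletion strain. The median gap between the copies was 0.19 in wild type and 0.22 in the deletion strain, little below the gap between 2 genes of different proteins (0.21 and 0.26 over 8591 combinations). Without deletion replicate 1 the gap in the deletion strain was 0.33.

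Across the 55 pairs the correlation of A with B lay between -0.17 and -0.01 on 5 arrays and was 0.46 on deletion replicate 1. In the mean of both strains, both copies fell in 2 pairs, RPL24 and RPS1, and 1 copy alone in 26 pairs. A copy that passed beside one that did not is no test of a gap between them.

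In 6 of the 55 pairs the same copy was higher on all 6 arrays, and all 6 encode large subunit proteins. The large subunit holds 72 of the 132 genes, so it is the largest class to begin with. A link between steady gaps and the subunit was not tested. How often genes of different proteins in general keep the same order on all 6 arrays is not given here. RPL34A was below RPL34B by 0.61 ± 0.25 (SD, n = 6), with gaps from -0.91 to -0.29. RPL40A was above RPL40B by 0.58 ± 0.14 (SD, n = 6), with gaps from 0.42 to 0.76, the steadiest of the 6. RPL43A was below RPL43B by 1.19 ± 0.65 (SD, n = 6).

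RPL11A was below RPL11B by 0.51 ± 0.39, RPL14A below RPL14B by 0.44 ± 0.24 and RPL27B below RPL27A by 0.26 ± 0.16 (SD, n = 6). The remaining wide gaps were less steady. RPS19A was above RPS19B by 1.20 ± 1.01 (SD, n = 6), with the reverse order on deletion replicate 3. RPL26A was below RPL26B by 1.12 ± 1.53 (SD, n = 6), with the reverse order on deletion replicate 1. RPS30A was above RPS30B by 0.74 ± 0.64 (SD, n = 6), again with deletion replicate 1 the other way round. In 30 of the 55 pairs the mean gap over 6 arrays was under 0.2.

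**Figure D4:**
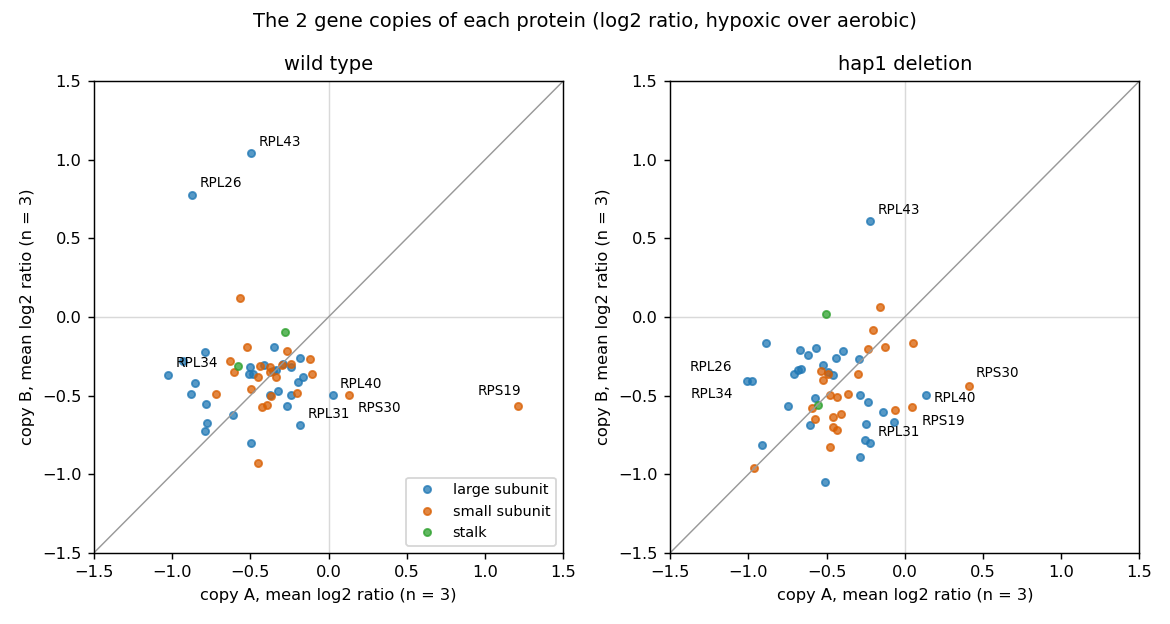
Mean log2 ratio of hypoxic over aerobic RNA of copy A (horizontal axis, n = 3) against copy B (vertical axis, n = 3) for 55 pairs, in wild type (left) and hap1 deletion (right), with the line of equal response and the 7 pairs of widest mean gap named. Most pairs form a cloud below 0 on both axes without following the line, and RPL43 lies above it in both strains.

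The other genes of translation put this response in context. RNA polymerase I makes the precursor of ribosomal RNA. The 7 of its subunit genes listed here, all named RPA, had medians of -1.02 in wild type and -0.94 in the deletion strain. RPA43 fell in wild type (-1.24 ± 0.09, SD, n = 3; limma adjusted p = 0.0496), or 14.3% of the list, against 2.32% of all genes. None of the 7 passed in the deletion strain. In the mean of both strains 4 fell, or 57.1%, against 9.52% of all genes. The 10 dedicated chaperones that escort single ribosomal proteins had medians of -0.81 and -0.75, and all 10 means were below 0 in both strains.

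RRB1, the chaperone of Rpl3, fell in wild type (-1.10 ± 0.25) and in the deletion strain (-1.37 ± 0.22, SD, n = 3; limma adjusted p = 0.0330 and 0.0145). PUF6, which acts with LOC1 on Rpl43, fell in both too (-0.97 ± 0.07 and -1.09 ± 0.38, SD, n = 3). These 2 genes were 20% of the list in each strain, against 2.32% and 1.82% of all genes. In the mean of both strains 7 of the 10 chaperone genes fell, or 70%, against 9.52% of all genes. How far the counts of these lists depend on single arrays is not given here.

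Of 26 initiation factor genes 2 fell in wild type (TIF6 and GCD2) and 6 in the deletion strain (GCD11, TIF3, TIF5, TIF11, TIF4631 and NIP1), with medians of -0.45 and -0.62. The genes that fell were 7.69% and 23.1% of the list, against 2.32% and 1.82% of all genes. None rose, and 24 and 20 did not pass. TIF6, which keeps the large subunit from joining too early, had -0.89 ± 0.22 (SD, n = 3) in wild type. TIF4631, the scaffold of the cap-binding complex, had -0.22 ± 0.25 in wild type and -1.16 ± 0.28 (SD, n = 3) in the deletion strain. The difference between strains passed for none of the 26.

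Of 14 elongation and termination factor genes 3 fell in each strain, none rose and 11 did not pass, with medians of -0.42 and -0.54. The share that fell was 21.4% in each strain, against 2.32% and 1.82% of all genes. YEF3, an elongation factor particular to fungi, fell in both (-0.88 ± 0.20 and -0.89 ± 0.13, SD, n = 3). HYP2 and ANB1, close copies that may share signal, fell in wild type (-1.93 ± 0.40 and -1.04 ± 0.47, SD, n = 3). In the deletion strain HYP2 read 0.52, 0.39 and -1.27 and ANB1 read 0.57, 0.38 and 0.29, and neither passed. Every deletion array of ANB1 lay above every wild-type array, but the difference between strains passed for none of the 14. TEF4 and EFT1 fell in the deletion strain. Among 9 ribosome-bound factors SSB2, a chaperone of new chains, fell in the deletion strain (-1.48 ± 0.07, SD, n = 3), and the medians were -0.54 and -0.69. SSB2 alone was 11.1% of this list, against 1.82% of all genes.

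The 28 regulators of ribosomal protein genes lay near 0, with medians of -0.04 and -0.12. None passed in wild type, and CKA2, a casein kinase subunit, fell in the deletion strain (-0.81 ± 0.06, SD, n = 3; limma adjusted p = 0.0377). In the mean of both strains RAP1, HMO1, TOD6 and CKA2 fell (by 0.52, 1.38, 0.75 and 0.61) and BCY1, the inhibitory subunit of protein kinase A, rose by 0.65. These are 14.3% and 3.57% of the list, against 9.52% and 7.44% of all genes. HMO1 had no value on wild-type replicate 2, and its wild-type ratios of -2.90 and -0.70 lay far apart. Of 66 genes named for mitochondrial ribosomal proteins, none passed in either strain, with medians of -0.10 and -0.26. In their mean over both strains 4 fell and 1 rose, or 6.06% and 1.52%, both below the shares of all genes (9.52% and 7.44%).

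**Figure D5:**
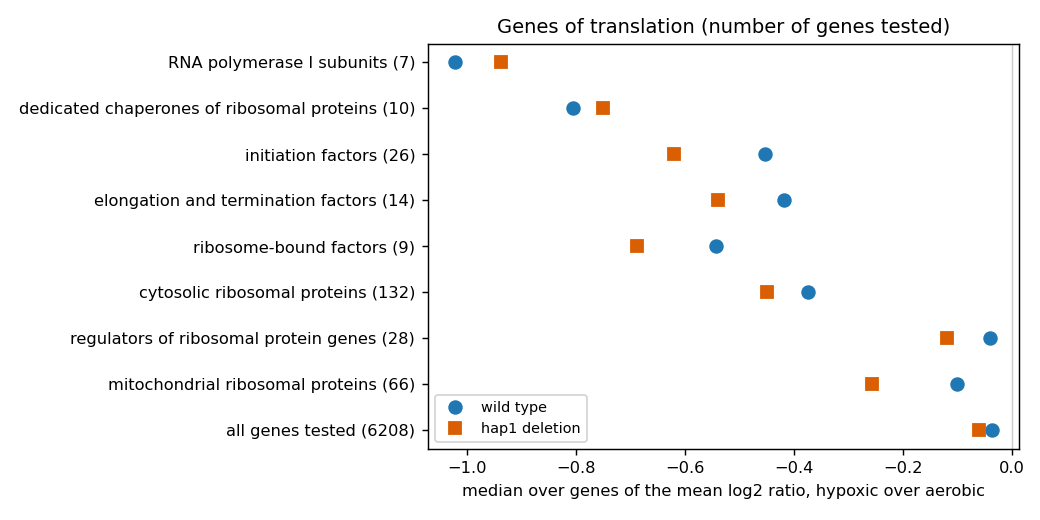
Median over the genes of each list of the mean log2 ratio of hypoxic over aerobic RNA (horizontal axis) in wild type (blue circles) and hap1 deletion (orange squares), with the number of genes tested in brackets. The cytosolic ribosomal proteins (-0.37 and -0.45) lie between the mitochondrial ribosomal proteins and regulators near 0 and the RNA polymerase I and chaperone genes at -0.75 or below.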

How the data were processed

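The deposited values were log10 ratios of aerobic over hypoxic RNA, 1 per gene and array, per the labels' titles. Spots were quantified with GenePix 5.0, per the labels; the labels name no background correction or normalization. The base was read from the values: 330 of 36476 were exact ratios of whole numbers with denominators up to 30 (relative tolerance 7e-08) with base 10, against 7 with base 2. The deposited ratios were turned to log2, hypoxic over aerobic. Symbols came from the RefSeq table of assembly R64. The strain means, their difference and their mean were tested two-sided by limma (version 3.58.1, R 4.3.3; lmFit, then eBayes, with 1 spread per gene for both strains, 4 residual degrees of freedom), adjusted by the Benjamini-Hochberg method over 6208 genes, with a threshold of 0.05. The code of the fit was tested on simulated data with independent noise for each gene, without a shift shared by the genes of an array. Only 3 arrays per strain limit the precision.

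Members, lists and tests were chosen with earlier results of these data known. Named with full values were members past the threshold, the 5 lowest and 5 highest means and strain differences, the 5 widest pairs, pairs of 1 sign on all arrays and the stalk. Other members were named for their role after their values were seen, and some results are not reported here. The mean of both strains and centring on the ribosomal protein median were added after seeing the data. The alternatives were centring, scaling, a dye term, the replicate number as a block, complete genes, strains fitted alone and leaving out each array.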

Additional observations from a re-analysis of the deposited data

How the results depend on the processing

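With 3 arrays per strain the calls of single members depended on the setting, while the medians of the group kept their direction. Calls in wild type (3) became 0 with a dye term and with strains fitted alone, 5 with complete genes, 1 with arrays centred on the ribosomal protein median, and 0 to 5 leaving out 1 array. Calls in the deletion strain (3) became 0, 0, 8, 1 and 0 to 5 in the same settings. Calls over all genes moved too. In wild type 4.24% of all genes were called in the main fit, 0.677% with a dye term and 7.06% with complete genes. Leaving out 1 array gave 0.0324% to 6.20%. In the deletion strain the shares were 4.32%, 1.95%, 6.89% and 0.610% to 4.62% in the same order. With arrays centred on the ribosomal protein median they were 4.14% and 7.81%. The shares with strains fitted alone are not given here. With arrays centred on the ribosomal protein median, all counts given here are of distance from that median and not of the response to hypoxia. The call was RPL43B in wild type and RPS30A in the deletion strain, both above the median. RPS30A was not among the 3 genes called lower in the main fit. Calls for the mean of both strains (37) became 8 with a dye term and 3 to 49 leaving out 1 array. They became 8 with arrays centred on the ribosomal protein median, and 10 without deletion replicate 1 as well. Of all genes 17.0% were called for this mean in the main fit, 8.26% with a dye term and 28.5% with that centring. Leaving out 1 array gave 5.81% to 17.6% of all genes. The test of the difference called 0 members in every setting. Each of the 6 single calls kept its direction in the 11 alternatives that fitted both strains together, and lost significance in 6 to 9 of them. With strains fitted alone, which is not among the 11, none of the 6 passed. With array centring the medians were -0.34 and -0.39, and the difference of the strains was 0.02 in place of -0.01. With A and B averaged, the large minus small subunit median was -0.0836 in wild type and -0.0176 in the deletion strain. The gap of A and B in the deletion strain ran from 0.21 to 0.33 leaving out 1 array. Same-numbered arrays of the strains had correlations of their deviations of -0.03, 0.06 and 0.13, and arrays of unlike number -0.17 to 0.11. Same-numbered arrays also had the same dye layout. These correlations cannot tell whether they shared a day or batch. The replicate block gave 0 calls in wild type, 0 in the deletion strain and 7 for the mean of both strains. Of all genes it called 2 in wild type (0.0322%), 1.05% in the deletion strain and 8.25% for the mean. With so few calls over all genes in wild type, a count of 0 there says little about the members. For the mean 6 members fell, or 4.55%, against 4.20% of all genes. Not every array correlated best with its own number.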

Other observations

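Some ribosomal protein genes are neighbours on a chromosome. In the order of the R64 table, 10 pairs of neighbouring genes were both ribosomal protein genes. In 3 of them the same gene was higher on all 6 arrays, and 2 of these are given here. RPS19B was below its neighbour RPL18B by 0.07 to 0.39. RPL24A was below its neighbour RPL30, whose protein controls splicing of its own transcript, by 0.31 to 0.90. In the other 7 pairs the order of the neighbours differed between arrays.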
